A study of Homo sapiens with 6 samples.

Results

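The genes described here are 10 named genes of the ATF4 and unfolded protein stress pathways: ATF4, ATF3, DDIT3, TRIB3, CHAC1, ASNS, PSAT1, PHGDH, HSPA5 and XBP1. They were taken by symbol from the count tables, and earlier results of these data were known when the set was chosen. They are 10 of 23368 symbols, all 10 of which were among the 13209 genes with enough counts to be tested. RNA was sequenced from NB4 cells, an established human acute promyelocytic leukemia line that carries the PML/RARα fusion protein, so that every value stands for 1 cell line. In all, 3 libraries came from not treated (n.t.) cells and 3 from cells kept with maltonis at 10 µM for 24 h. This compound, a hydroxypyrone made from maltol, was dissolved in distilled water. The labels name no vehicle for the n.t. cells. The study calls the 3 libraries of a group biological replicates but the labels do not say that they came from separate cultures, so p-values measure only the spread between these libraries.

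Cells answer amino acid shortage, heme shortage, viral double-stranded RNA and misfolded protein in the endoplasmic reticulum (ER) with the integrated stress response, in which kinases phosphorylate the translation factor eIF2, most protein synthesis falls, and the mRNA of the transcription factor ATF4 is translated more. ATF4 then switches on genes for amino acid uptake, amino acid synthesis and further stress factors such as ATF3, DDIT3 (CHOP), TRIB3 and CHAC1. The unfolded protein response of the ER uses one of these kinases, EIF2AK3 (PERK), together with the sensors ERN1 (IRE1) and ATF6, and its classic products are the chaperone HSPA5 (BiP) and the spliced form of XBP1. Much of this control acts on translation, splicing or protein cleavage, which RNA counts per gene do not show.

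The 10 genes did not move as a block. After maltonis DDIT3 and CHAC1 rose, ATF4, ATF3, TRIB3, ASNS, PSAT1, PHGDH and HSPA5 fell, and XBP1 did not pass the test. The increases were 2.83-fold for DDIT3 and 8.33-fold for CHAC1, and the decreases lay between 1.32-fold for ASNS and 2.24-fold for HSPA5. With edgeR's quasi-likelihood test and Benjamini-Hochberg adjustment over all genes tested (FDR under 0.01), 9 of 10 genes passed, as did 64.0% of all genes tested. Of the 10, 2 were higher, where 31.9% of all genes tested were, and 7 were lower, where 32.1% were. The median log2 fold change was −0.66 over the 10 genes and 0.01 over all genes tested. In 9 of 10 genes the n.t. and the maltonis libraries did not overlap in CPM, the count scaled to library size, which held for 76.6% of all genes tested. The 2 higher genes stood beside 38.8% of all genes that were higher without overlap, and the 7 lower genes beside 37.8% that were lower. A fold change beyond 2.5 at this FDR was reached by DDIT3 and CHAC1 upwards, as by 9.95% of all genes, and by none of the 10 downwards, where 10.4% of all genes reached it. The study also asked for an RPKM, a count scaled to gene length and library size, above 10. Only DDIT3 of the 10 genes met that too, as did 1.55% of all genes upwards and 3.17% downwards, since CHAC1 stayed under that RPKM.

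**Figure D1:**
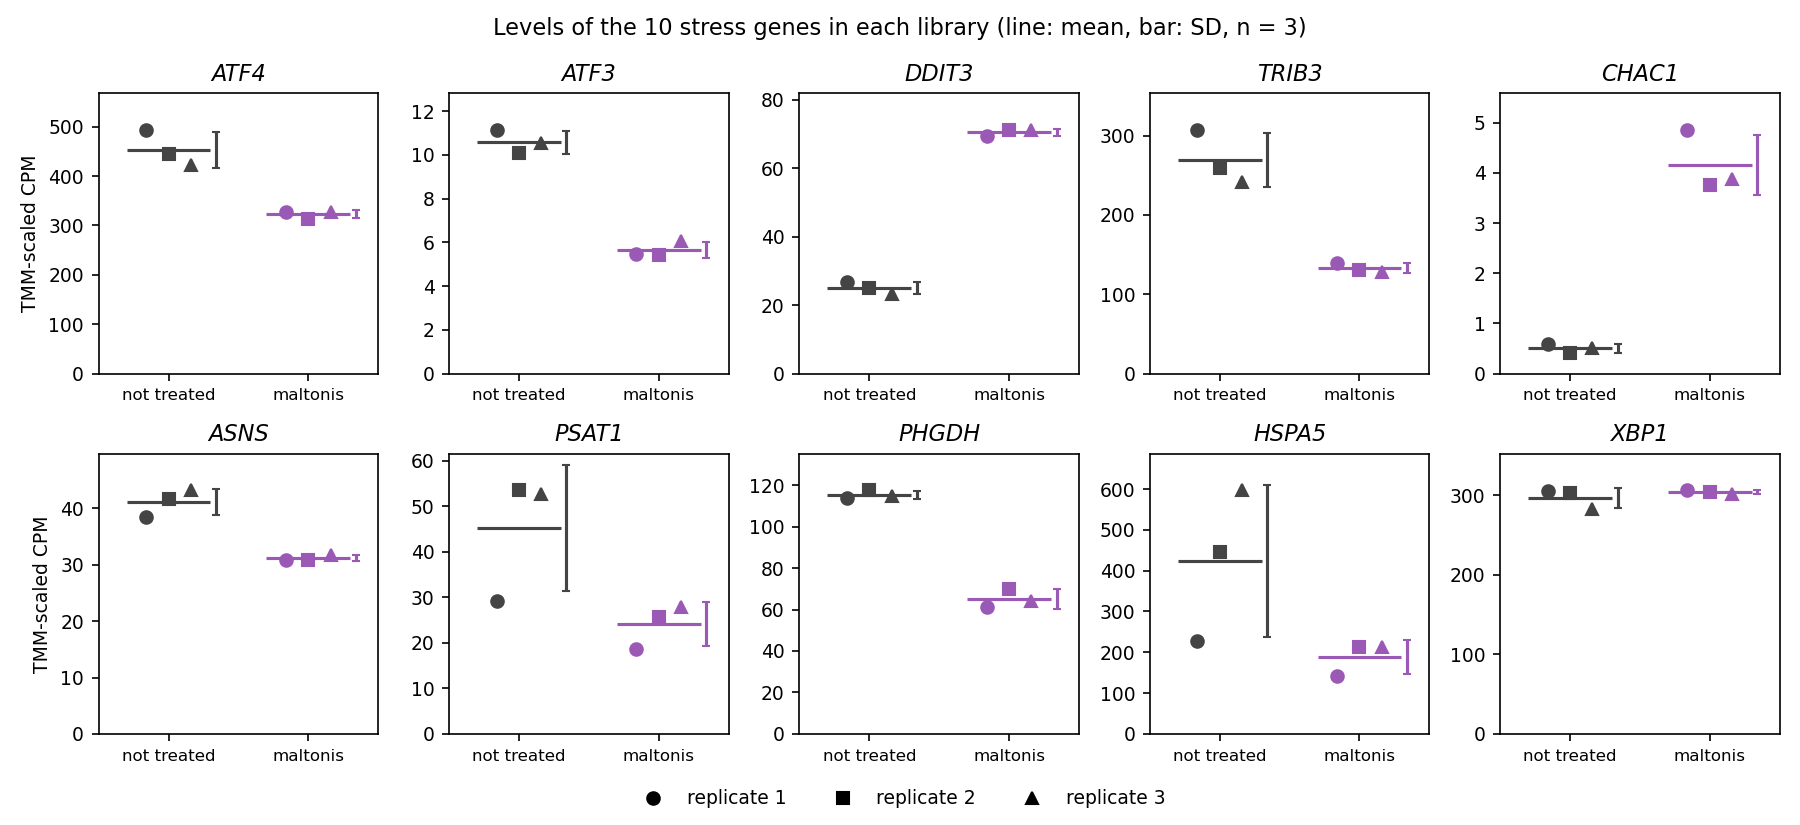
CPM (vertical axes, linear and starting at 0, 1 panel per gene) in each library of n.t. and maltonis cells. Points are libraries, with a shape per replicate number, lines are group means and bars are SD (n = 3). DDIT3 and CHAC1 lie higher in all 3 maltonis libraries, the XBP1 points overlap, and the n.t. points of HSPA5 spread from 226 to 597 CPM.

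The promoters of 5 genes are shown because they hold the letters of DNA elements through which these pathways are known to act. Only exact letters were counted, so a variant of an element, or an element farther from the start site, was missed. The 250 bases before each RefSeq start site (GRCh38.p14) were searched on both strands for the C/EBP-ATF element TGATGNAA, bound by ATF4 with a C/EBP partner, and for the ER stress response element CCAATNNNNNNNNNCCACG, bound by ATF6 with NF-Y. The search matched all 10 genes by symbol, with 17 windows, in a table of 35116 windows. ATF3, ASNS and XBP1 each had a further window, at another start site, that held no match and is not shown. The windows below are written 5′ to 3′ on the strand of the gene and end at the base before the start site, with the match in capitals. In CHAC1 the match lies on the opposite strand, so its letters are the reverse complement of the element.
ATF3, chr1:212565157-212565406, plus strand: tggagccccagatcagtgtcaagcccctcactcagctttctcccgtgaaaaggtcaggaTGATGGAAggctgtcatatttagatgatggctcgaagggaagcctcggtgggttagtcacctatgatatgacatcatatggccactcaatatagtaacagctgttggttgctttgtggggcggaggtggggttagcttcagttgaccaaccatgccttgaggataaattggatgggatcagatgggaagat
ASNS, chr7:97872409-97872658, minus strand: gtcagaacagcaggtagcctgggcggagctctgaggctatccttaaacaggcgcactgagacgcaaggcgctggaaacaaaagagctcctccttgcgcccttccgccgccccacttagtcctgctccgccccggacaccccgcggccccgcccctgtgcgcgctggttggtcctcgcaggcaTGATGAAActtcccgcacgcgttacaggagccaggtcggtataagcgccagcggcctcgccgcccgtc
CHAC1, chr15:40953221-40953470, plus strand: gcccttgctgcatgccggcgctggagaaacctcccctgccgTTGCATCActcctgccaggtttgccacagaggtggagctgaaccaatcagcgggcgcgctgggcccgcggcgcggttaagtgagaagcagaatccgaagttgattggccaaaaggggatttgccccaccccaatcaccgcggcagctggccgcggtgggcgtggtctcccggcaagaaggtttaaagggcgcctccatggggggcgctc
HSPA5, chr9:125241344-125241593, minus strand: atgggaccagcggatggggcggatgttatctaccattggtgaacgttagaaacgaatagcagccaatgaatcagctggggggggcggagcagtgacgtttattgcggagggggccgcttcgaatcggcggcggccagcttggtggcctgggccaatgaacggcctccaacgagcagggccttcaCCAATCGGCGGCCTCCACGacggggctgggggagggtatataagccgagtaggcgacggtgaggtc
XBP1, chr22:28800570-28800819, minus strand: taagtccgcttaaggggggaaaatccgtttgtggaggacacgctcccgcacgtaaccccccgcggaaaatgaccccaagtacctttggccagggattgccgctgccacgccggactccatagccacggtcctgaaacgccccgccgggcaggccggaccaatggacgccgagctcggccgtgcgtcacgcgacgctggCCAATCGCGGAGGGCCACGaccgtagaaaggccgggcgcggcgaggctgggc

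The C/EBP-ATF letters occurred in 3.14% of all windows and in 3.89% of all genes with a window. Among the 10 genes they occurred in ASNS, CHAC1 and ATF3, beginning 68, 209 and 191 bases before the start site of the window shown. These 3 genes did not share a direction, since CHAC1 rose while ASNS and ATF3 fell. Of the genes tested, 9129 had a window, and 219 of these held a match, ATF3, ASNS and CHAC1 among them. Of the 219 genes, 34.2% were higher and 35.2% lower after maltonis. These shares lay near the 31.9% and 32.1% of all genes tested, which include genes without a window. The longer ER stress letters occurred in 0.074% of windows and in 0.0916% of genes with a window. Among the 10 genes they occurred in HSPA5 and XBP1, beginning 66 and 52 bases before the start site of the window shown. Here too the directions were not shared, with HSPA5 lower and XBP1 not past the test. Of the 15 tested genes with these letters, 5 were higher and 6 lower. Stretches that miss these letters by the last base, such as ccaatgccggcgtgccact in the DDIT3 windows, were not counted. Neither the cyclic AMP response element TGACGTCA nor the unfolded protein response element TGACGTGG occurred in a window of the 10 genes. They occurred in 1.65% and 0.612% of all windows, and in 2.03% and 0.78% of all genes with a window.

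The RNA of ATF4, the factor that gives the pathway its name, fell slightly. The n.t. libraries held 493, 444 and 421 CPM of ATF4 and the maltonis libraries 327, 314 and 328 CPM. Every maltonis library was thus lower than every n.t. library, and the maltonis values were almost level. The decrease was 1.40-fold (log2 fold change −0.49, SE 0.0690, 95% confidence interval −0.65 to −0.33, FDR 0.000206). ATF3, an ATF-family factor that is usually a rapid stress-induced target, was a low-level gene and also fell. It gave 11.1, 10.1 and 10.5 CPM in n.t. cells against 5.47, 5.40 and 6.07 CPM after maltonis, without overlap, a decrease of 1.87-fold (log2 −0.90, SE 0.1002, FDR 4.72e-05).

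DDIT3, the CHOP factor associated with prolonged stress and apoptosis, moved the other way. Its n.t. libraries held 26.7, 24.98 and 23.1 CPM and its maltonis libraries 69.4, 71.1 and 71.1 CPM. The groups were far apart beside their spread, and the log2 fold change was 1.50 (SE 0.0726, 95% confidence interval 1.34 to 1.67, FDR 3.43e-07). The exons of DDIT3 on chromosome 12 overlap those of MARS and MBD6 on the opposite strand in GENCODE 29. The library kit keeps the strand but the counting setting is not given in the sources used here. On the same strand they overlap exons of AC022506.1, which the strand of a read cannot separate. MBD6 rose from 5.73 ± 1.11 to 20.0 ± 3.53 CPM (SD, n = 3), while MARS, a methionyl-tRNA synthetase gene, fell from 386 ± 7.41 to 215 ± 6.71 CPM (SD, n = 3). Both were named after their values were seen. Whether reads of these neighbours entered the DDIT3 counts was not tested.

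TRIB3, a pseudokinase induced by ATF4 and DDIT3 that restrains both, fell by 1.02 on the log2 scale (SE 0.0918, 95% confidence interval −1.23 to −0.81, FDR 1.26e-05). Its libraries held 307, 259 and 241 CPM in n.t. cells and 140, 130 and 128 CPM after maltonis. No maltonis library reached the n.t. range, so that a gene usually placed downstream of DDIT3 was 2.03-fold lower in the libraries where DDIT3 was higher. CHAC1, an enzyme that degrades glutathione and a well-known ATF4 target, showed the largest fold change of the 10 genes, from a level near the detection limit. It was counted 11, 15 and 17 times in the n.t. libraries and 94, 126 and 109 times after maltonis, or 0.586, 0.414 and 0.513 against 4.85, 3.76 and 3.87 CPM. The groups did not overlap, and all n.t. counts were above the 3 counts taken as the floor. The log2 fold change was 3.06 (SE 0.202, 95% confidence interval 2.60 to 3.52, FDR 1.85e-06), which ranked 245 from the top among the 13209 genes tested.

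The 3 genes of amino acid synthesis fell. ASNS, which makes asparagine, gave 38.5, 41.7 and 43.2 CPM in n.t. cells and 30.9, 30.8 and 31.7 CPM after maltonis, the smallest decrease among the 7 lower genes (log2 −0.40, SE 0.0696, FDR 0.000716). Its exons overlap those of AC079781.5 on the same strand in GENCODE 29, and the effect on its counts was not tested. PHGDH, the first enzyme of serine synthesis, gave 114, 117 and 115 CPM and then 61.0, 70.1 and 63.9 CPM, a 1.77-fold decrease (log2 −0.83, SE 0.0670, FDR 6.50e-06). In both genes the groups did not overlap. PSAT1, the next enzyme of serine synthesis, was less even: its n.t. libraries held 29.1, 53.5 and 52.8 CPM and its maltonis libraries 18.7, 25.7 and 27.9 CPM. The highest maltonis library lay just under the lowest n.t. library, and the decrease of 0.91 on the log2 scale had a wide error (SE 0.232, 95% confidence interval −1.44 to −0.38, FDR 0.00671). PSPH, the enzyme that completes serine synthesis, was lower by a small step, from 84.2 ± 2.52 to 71.6 ± 2.06 CPM (SD, n = 3; log2 −0.23, FDR 0.00558).

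HSPA5, the main Hsp70 chaperone of the ER lumen, was the most variable of the 10 genes. It gave 226, 447 and 597 CPM in n.t. cells and 142, 214 and 213 CPM after maltonis. The groups did not overlap but nearly met, since the highest maltonis library and the lowest n.t. library lay at 214 and 226 CPM. The fitted decrease was 2.24-fold (log2 −1.16, SE 0.312, 95% confidence interval −1.87 to −0.45, FDR 0.00860). HSPA5 and PSAT1 lost the call when any library other than n.t. replicate 1 was left out, with FDR values for HSPA5 up to 0.0454 and for PSAT1 up to 0.0329, and HSPA5 was also lost when 10 counts in every library were asked for (FDR 0.0114). XBP1, the factor activated when IRE1 splices its mRNA, gave 305, 302 and 283 CPM and then 306, 304 and 302 CPM. Its ranges overlapped, and the log2 fold change of 0.03 had a 95% confidence interval from −0.09 to 0.16 (FDR 0.578). Counts per gene add the spliced and unspliced forms and give no measure of splicing.

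**Figure D2:**
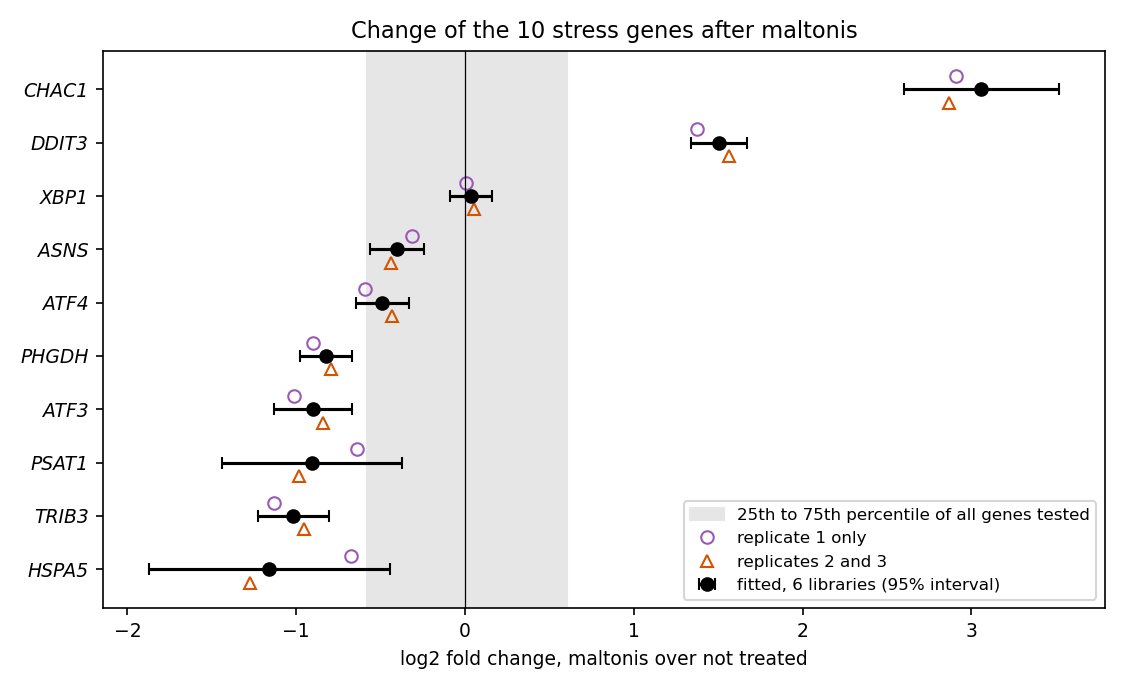
Log2 fold change, maltonis over n.t., of each of the 10 genes (points) with 95% confidence intervals (bars) and, beside them, the differences within replicate 1 and within replicates 2 and 3. CHAC1 (3.06) and DDIT3 (1.50) lie above 0, XBP1 lies on it, and the intervals of HSPA5 and PSAT1 are the widest among the lower genes.

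In HSPA5, PSAT1 and PHGDH replicate 1 was the lowest library of both groups, that is in 3 of 10 genes and in 19.5% of all genes tested, with the largest gaps in HSPA5 and PSAT1. The names of the deposited files carry 1 code for replicate 1 and another for replicates 2 and 3, and what the code means is not stated. In n.t. cells replicate 1 was lower than the mean of the other two by 1.19 on the log2 scale for HSPA5 (log2 difference −1.19) and by 0.86 for PSAT1 (−0.86), and after maltonis the differences were −0.59 and −0.52. In n.t. cells a gap below −0.5 was seen in these 2 of 10 genes and in 888 of 13209 genes tested (6.72%). The gap was seen in 0 of 27 other ER chaperones and folding enzymes and 0 of 22 genes around eIF2. It was seen in 2 of 12 genes around the sensors, both of them proteases, and in 2 of 20 genes of serine and related metabolism. It was also seen in 2 of 33 genes of ER-associated degradation and the translocon, 2 of 39 other ATF4 targets and 1 of 28 leucine zipper partners. Within replicate 1 HSPA5 differed between maltonis and n.t. by −0.68 on the log2 scale and within replicates 2 and 3 by −1.28, and PSAT1 by −0.64 and −0.99. With the code as a factor in edgeR's quasi-likelihood test, the log2 fold change of HSPA5 was −1.09 (FDR 1.11e-05) and that of PSAT1 −0.89 (FDR 1.25e-06). The other called genes kept their sign within replicate 1 and within replicates 2 and 3, with 1.37 and 1.56 for DDIT3, 2.91 and 2.87 for CHAC1 and −0.59 and −0.43 for ATF4. The part of the code in these values was not tested further. By the exact two-sided permutation test on single genes, which with 3 against 3 libraries cannot go below p = 0.1, the 9 called genes had p = 0.1 and XBP1 p = 0.5.

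**Figure D3:**
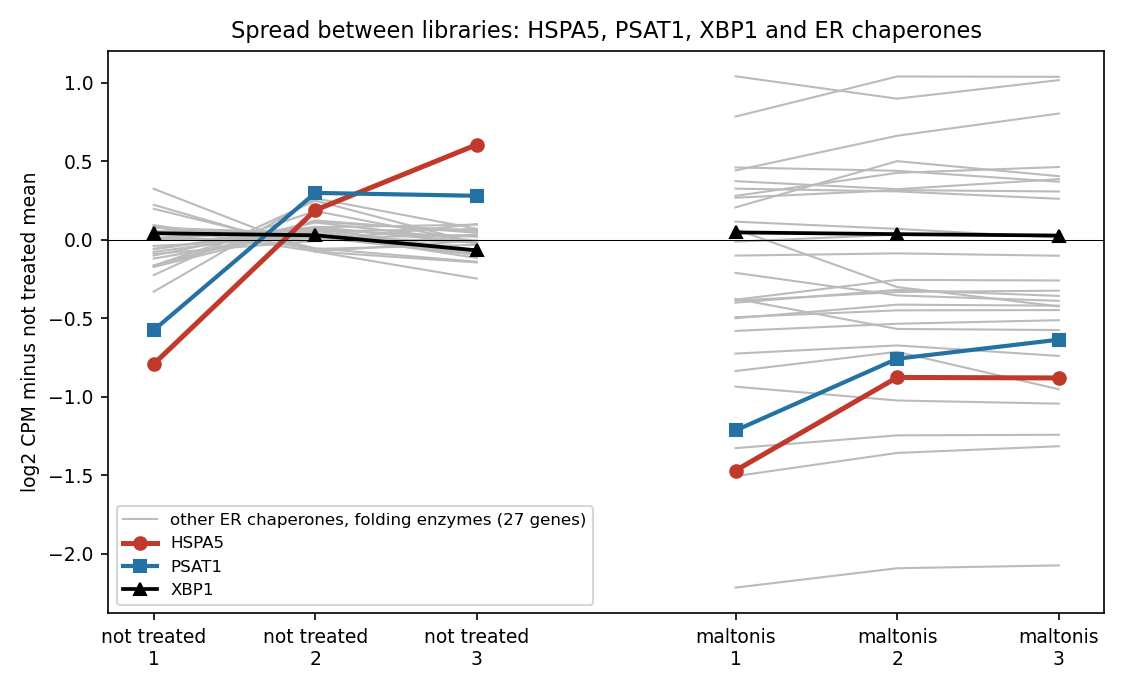
Log2 CPM minus the n.t. mean of the gene (vertical axis) in each of the 6 libraries (horizontal axis), for HSPA5, PSAT1, XBP1 and 27 other ER chaperones and folding enzymes (grey). Lines join the values of 1 gene within a group and imply no order, and replicate 1 is the lowest n.t. library for HSPA5 and PSAT1 by gaps of −1.19 and −0.86.

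Compared per length, the order of the 10 genes changed. In n.t. cells ATF4 led with a level of 180 RPKM, followed by HSPA5 with 108, XBP1 with 97.9, TRIB3 with 78.4, PSAT1 with 20.6, DDIT3 with 19.1, PHGDH with 12.5, ASNS with 9.23, ATF3 with 2.62 and CHAC1 with 0.245 RPKM. HSPA5 and XBP1 overlapped between libraries, as did PSAT1 and DDIT3, and the other neighbours in this order did not. After maltonis the order was ATF4 with 128, XBP1 with 100.3, DDIT3 with 54.0, HSPA5 with 48.5, TRIB3 with 38.7, PSAT1 with 11.0, PHGDH with 7.05, ASNS with 6.99, CHAC1 with 2.02 and ATF3 with 1.40 RPKM. DDIT3 thus moved above HSPA5 and TRIB3 in mean level, although its range overlapped that of HSPA5, and so did the ranges of HSPA5 and TRIB3 and of PHGDH and ASNS. The length used here covers all exons in GENCODE 29, and the order depends on it. When only exons linked to RefSeq are counted, a length chosen after seeing the data, the mean level of XBP1 lay above that of HSPA5 in n.t. cells (160 against 108 RPKM) and above that of ATF4 after maltonis (164 against 159.6 RPKM), and PHGDH lay at 55.0 RPKM in n.t. cells and 31.0 after maltonis. Reads from 4 named pseudogenes each of ATF4, ASNS and PSAT1 and 1 of XBP1 have no entry of their own in the count tables, so these levels are uncertain to that extent.

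Of the other targets of ATF4 the count tables held 43 and 39 were tested. Among these 12 were higher (30.8%, beside 31.9% of all genes tested) and 15 lower (38.5%, beside 32.1%), with a median log2 fold change of −0.01. Both shares lay near those of all genes. The largest increases were those of CTH, which makes cysteine (2.27 ± 0.266 to 9.53 ± 0.783 CPM, SD, n = 3; log2 2.04, FDR 1.40e-06), KLHL24 (log2 1.66) and DDIT4, an inhibitor of mTORC1 (45.8 ± 1.82 to 139 ± 5.96 CPM, SD, n = 3; log2 1.60, FDR 1.35e-07). SESN2, another brake on mTORC1, rose by a log2 fold change of 0.98, PPP1R15A by 0.68, HERPUD1 by 0.41 and SLC7A11, the cystine carrier, by 0.36. The largest decreases were those of STC2, a secreted glycoprotein (log2 −3.05), BCAT1, a branched-chain aminotransferase (794 ± 15.2 to 171 ± 7.92 CPM, SD, n = 3; log2 −2.21, FDR 2.77e-08), and CBS, which feeds cysteine synthesis just before CTH (log2 −1.88). SLC3A2, the partner chain of SLC7A11, fell by 0.98 on the log2 scale. CEBPB (log2 0.38, FDR 0.0845), CEBPG (0.13, FDR 0.0745), ATF5 (−0.13, FDR 0.441) and VLDLR (−0.01, FDR 0.949) did not pass the test.

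Upstream of ATF4, the eIF2 kinases were not uniform. EIF2AK2 (PKR), the kinase activated by double-stranded RNA and itself an interferon-inducible gene, rose from 81.8 ± 8.71 to 157 ± 6.79 CPM (SD, n = 3; log2 0.94, FDR 1.15e-05). EIF2AK1 (HRI), the heme-regulated kinase, and EIF2AK3 (PERK) were higher by 0.41 (FDR 0.00818) and 0.39 (FDR 0.00128) on the log2 scale, while EIF2AK4 (GCN2), which senses uncharged tRNA, was lower (log2 −0.35, FDR 0.00369). KIAA0141 (DELE1), which relays mitochondrial stress to HRI, rose from 53.9 ± 1.60 to 133 ± 6.71 CPM (SD, n = 3; log2 1.31, FDR 3.30e-07). PPP1R15A (GADD34), the stress-induced subunit of the phosphatase that reverses eIF2 phosphorylation, passed the test (FDR 5.65e-05), and its constitutive counterpart PPP1R15B did not (log2 0.34, FDR 0.0151). The list of 22 genes holds the kinases, phosphatase subunits, eIF2, eIF2B and some others, KIAA0141 and DNAJC3 among them. In this list 6 were higher and 6 lower (27.3% each, against 31.9% and 32.1% of all genes tested). The median log2 fold change was −0.03. The higher genes were EIF2AK1, EIF2AK2, EIF2AK3, PPP1R15A, KIAA0141 and DNAJC3 (log2 0.39, FDR 0.000518), so not all were of the classes that name the list. DNAJC3 was named after its values were seen. EIF2B3, a subunit of the nucleotide exchange factor of eIF2, had the largest decrease in this list (52.3 ± 0.544 to 9.77 ± 0.279 CPM, SD, n = 3; log2 −2.42, FDR 3.17e-08), followed by PPP1CC (−0.82) and EIF2B5 (−0.80).

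Among the sensors of the unfolded protein response ATF6 fell from 99.0 ± 4.68 to 50.8 ± 0.304 CPM (SD, n = 3; log2 −0.96, FDR 1.37e-06). MBTPS2, the protease that makes the second cut in ATF6, was also lower (log2 −1.24), as was C22orf28 (RTCB), the ligase that joins the cut XBP1 mRNA (log2 −0.77). ERN1 itself was low, with 2.52 ± 0.200 and 2.17 ± 0.321 CPM (SD, n = 3; log2 −0.25, FDR 0.176). CREB3L4, a related membrane-bound factor, had the largest increase (log2 1.70). In all, 2 of 12 tested genes of this list were higher (16.7%, with 31.9% of all genes tested) and 4 lower (33.3%, near the 32.1% of all genes).

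Of 27 ER chaperones and folding enzymes other than HSPA5, 14 were lower (51.9%, with 32.1% of all genes tested lower) and 8 higher (29.6%, with 31.9% of all genes higher), and the median log2 fold change was −0.30. HSP90B1 (GRP94), the ER Hsp90, held 1500, 1692 and 1708 CPM in n.t. cells and 650, 687 and 689 CPM after maltonis, a decrease of 1.27 on the log2 scale with little spread (SE 0.0688, FDR 6.15e-07). DNAJC10 (log2 −2.13) and PDIA5 (log2 −1.39), a reductase and a disulfide isomerase, fell more. DNAJB9, an HSPA5 co-chaperone and a known target of spliced XBP1, rose from 20.5 ± 2.08 to 31.9 ± 3.98 CPM (SD, n = 3; log2 0.64, FDR 0.000821). FKBP2 (log2 0.98) and ERO1LB (log2 0.94), a prolyl isomerase and an oxidase of the ER, also rose. In ER-associated degradation and the translocon 12 of 33 genes were higher (36.4%, with 31.9% of all genes tested) and 5 lower (15.2%, with 32.1% of all genes), and the median log2 fold change was 0.10. SELS, EDEM2 and SYVN1, which help to retrotranslocate and ubiquitinate misfolded proteins, rose by log2 fold changes of 0.95, 0.63 and 0.59. SEC61B (log2 −0.43) and SEC61A1 (log2 −0.34), channel subunits of the translocon, fell. EDEM1 did not pass the test (log2 0.24, FDR 0.0907).

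**Figure D4:**
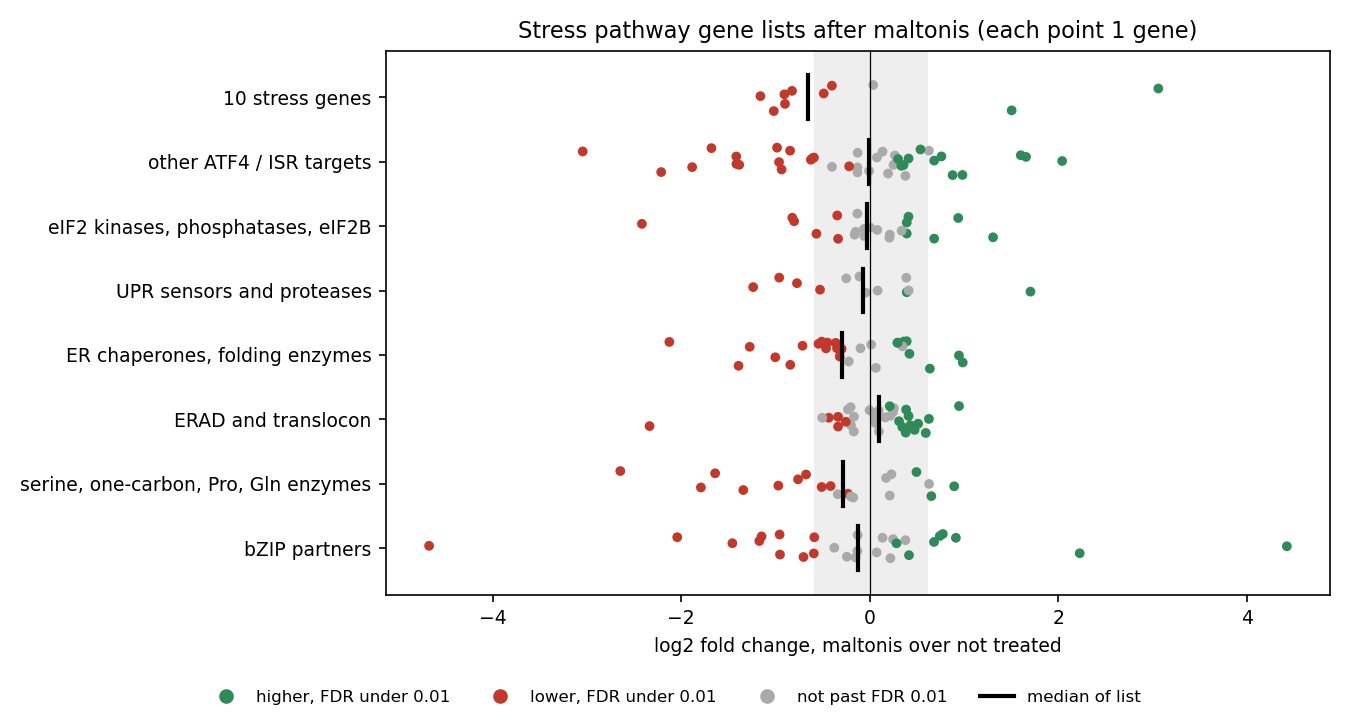
Log2 fold change, maltonis over n.t., of every tested gene (points) in the 10 genes and in 7 related lists, coloured by whether the gene passed FDR 0.01, with list medians as bars and the 25th to 75th percentile of all genes tested in grey. DDIT3 and CHAC1 lie to the right of all other stress genes of the first line, and each of the 7 lists holds called genes on both sides of 0.

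Enzymes around PSAT1 and PHGDH followed their direction in part. Of 20 tested genes for serine, one-carbon, proline and glutamine metabolism 10 were lower (50%, with 32.1% of all genes tested) and 3 higher (15.0%, with 31.9% of all genes), and the median log2 fold change was −0.29. The mitochondrial GOT2 (log2 −2.65), PYCR1 of proline synthesis (−1.79) and the alanine aminotransferase GPT2 (−1.64) fell most, and MTHFD2 of the mitochondrial folate cycle fell from 367 ± 4.25 to 275 ± 20.3 CPM (SD, n = 3; log2 −0.42, FDR 0.000404). The enzymes that split serine to glycine went the other way, with SHMT1 at a log2 fold change of 0.89 and SHMT2 at 0.49 (480 ± 21.8 to 675 ± 8.56 CPM, SD, n = 3; FDR 5.66e-05). GLUL, glutamine synthetase, rose as well (0.65).

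The basic leucine zipper factors that can pair with ATF4, ATF3 or DDIT3 included the widest changes of any list, although from low levels. BATF2 rose from 0.401 ± 0.0745 to 8.40 ± 0.483 CPM (SD, n = 3; log2 4.42, FDR 9.63e-08), and BATF3 fell from 6.09 ± 0.633 to 0.217 ± 0.101 CPM (SD, n = 3; log2 −4.67, FDR 4.57e-07). BATF2 was counted only 9, 12 and 13 times in the n.t. libraries. BATF3 was counted 2, 10 and 7 times after maltonis, with maltonis replicate 1 under the floor of 3 counts. The sizes of both folds are therefore uncertain. JUN, a common partner of ATF3, fell by 2.04 on the log2 scale and MAFF by 1.46, while FOSB (2.22) and CREM (0.91) rose. Of 28 genes in this list 8 were higher and 10 lower, shares of 28.6% and 35.7% that lay near the 31.9% and 32.1% of all genes tested, and the median log2 fold change was −0.13.

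Library depth lay between 18492154 and 38205483 counts. The myeloid identity of the cells was checked on 10 markers, which were above 3 counts in every library, with a summed level of 14420 to 16922 CPM in n.t. cells and 8935 to 9482 CPM after maltonis. MPO, the myeloperoxidase of promyelocytes, made up most of it, and 6 of the 10 markers were lower after maltonis without overlap. The other 4 were higher without overlap: CTSG went from 103 to 113 CPM up to 539 to 576 CPM, PRTN3 from 449 to 584 CPM up to 595 to 896 CPM, AZU1 from 41.5 to 49.2 CPM up to 59.95 to 71.3 CPM, and KIT from 0.386 to 0.633 CPM up to 2.95 to 3.67 CPM. HBB of red cells was at 0 in all 6 libraries and ALAS2 at or under 0.0533 CPM. Of the B cell markers MS4A1 was at 0 and CD79A at 1.90 to 2.93 CPM in n.t. cells and 0.826 to 0.954 CPM after maltonis. Of the megakaryocytic markers PF4 was at 0 and ITGA2B was detected, at 18.8 to 20.6 CPM and then 28.2 to 31.7 CPM. Of the T cell markers CD3D was detected, at 42.9 to 44.8 CPM in n.t. cells and 14.9 to 15.8 CPM after maltonis, while CD3E stayed at or under 0.0597 CPM. The epithelial markers EPCAM and KRT8 together gave 18.6 to 20.4 CPM and then 15.6 to 16.7 CPM, but moved in opposite directions. EPCAM went from 16.0 to 17.6 CPM in n.t. cells down to 10.2 to 12.8 CPM after maltonis. KRT8 went from 2.45 to 2.83 CPM up to 3.94 to 5.58 CPM. These marker levels moved with treatment, and their part in the stress gene results was not tested. In bulk RNA fewer cells that express a gene and less RNA per cell cannot be told apart.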

How the data were processed

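The authors deposited 1 table per library of raw counts of reads per gene symbol, without normalization. Per the submitters' processing notes TopHat, Bowtie2, HTSeq and the build hg19 were used, and the annotation and the strand setting are not given in the sources used here. Libraries were grouped by their labels. ChIP-seq and proteomic data were not analysed here. Replicates were compared first: chi-square per degree of freedom lay between 4.15 and 33.1, so all 6 were kept as separate libraries.

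The quasi-likelihood test of edgeR 4.0.16 was run under R 4.3.3 (TMM, filterByExpr, no covariates, Benjamini-Hochberg adjustment over 13209 genes). FDR denotes this adjusted p-value throughout. CPM used TMM-scaled library sizes. RPKM was computed here from exon lengths in GENCODE 29, found for 21658 of 23368 symbols. Promoters came from RefSeq, GRCh38.p14, whose coordinates are not those of hg19. On simulated counts for this comparison, over 13161 genes, 84 of 98 genes changed 2-fold and 96 of 99 changed 4-fold were called. The simulation gave every gene the same small dispersion, the spread beyond counting noise. It held no difference by file-name code and changed few genes. It therefore does not give the recovery for genes with a wide spread, such as HSPA5 and PSAT1. Python 3.11.15, pandas 2.3.3, numpy 2.4.6, scipy 1.17.1 and matplotlib 3.10.9 were used.

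The 10 genes and the 7 lists were chosen with earlier results of these data known. Genes named in the text are the 10 genes, a set of regulators and targets picked by name, and from each list the 3 genes that rose most and the 3 that fell most among called genes without overlap. For ATF4 and for HSPA5 the 5 genes most like them are named too, as are the untested genes of the 7 lists. A gene that this rule picks and some markers are not reported here. Alternatives covered the test (DESeq2 1.42.0, likelihood ratio), scaling, filter, threshold, replicate block, file-name code and each library left out. RefSeq-linked lengths were added after seeing the data.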

Additional observations from a re-analysis of the deposited data

How the results depend on the processing

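DDIT3 and CHAC1 remained higher under all 17 alternatives, and between 5 and 7 of the 10 genes were lower. HSPA5 missed FDR 0.01 with total counts (log2 −1.04), with upper quartile scaling (−1.07) and with at least 10 counts in every library (−1.13), and PSAT1 with total counts (−0.79) and upper quartile scaling (−0.82). With each library left out in turn HSPA5 ranged from −1.47 to −0.84 and PSAT1 from −1.14 to −0.78, and each kept its call only without n.t. replicate 1. Scaling by total counts moved the median of all genes by 0.119 on the log2 scale. Among list counts, the enzymes of serine and related metabolism had 5 higher genes with the file-name code as a factor, 7 with total counts and 6 with upper quartile scaling, and the lower genes of ER-associated degradation and the translocon were 3 with total counts, 3 with upper quartile scaling and 3 to 7 with each library left out, with 3 only without maltonis replicate 2. The genes meeting the fold criterion of the study were 2 without the RPKM criterion, CHAC1 being the addition, and 1 to 2 with each library left out, with 2 only without n.t. replicate 1. XBP1, never called, changed sign without n.t. replicate 3 and ranged from −0.0060 to 0.0442 with each library left out. It reached 0.154 (FDR 0.0311) with total counts and 0.122 (FDR 0.0703) with upper quartile scaling. The cause of these shifts was not tested.

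Deviations of libraries with the same replicate number correlated at 0.301, 0.0852 and 0.161, and not every library correlated best with its own number, so the numbers were not taken as pairs. Across the groups, libraries with the same file-name code correlated at 0.0852 to 0.301 and those with different codes at −0.232 to −0.162. Deviations were taken from the mean of each group, so positive values for some pairs force negative values for others. The signs for equal and different codes are thus not separate observations. The code as a factor raised the calls from 4213 higher and 4239 lower to 4731 and 4743. With the replicate block the sensor list had 4 higher genes in place of 2, and 4602 genes were higher and 4620 lower overall. The block gave −1.08 for HSPA5 and −0.89 for PSAT1. Depth limits the folds of genes with few counts, such as CHAC1 with 11 to 17 counts in n.t. libraries.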

Other observations

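Some genes of the 7 lists were too scarce to be tested, and the counts of all of them were read directly. FGF21 was counted 0 times in 5 libraries and 2 times in maltonis replicate 3, and NUPR1 gave 1 count in all. GDF15, a stress cytokine, gave 1, 0 and 0 counts in n.t. libraries and 5, 7 and 0 after maltonis, which overlap. CREB3L3, a liver-enriched relative of ATF6, gave 0 counts in all n.t. libraries and 6, 6 and 1 after maltonis, and CREB3L1 gave 2, 3 and 1 and then 10, 7 and 5. ALDH1L1, a folate enzyme, gave 0 in all n.t. libraries and 5, 12 and 7 after maltonis. The groups overlapped in the remaining genes. SLC6A9 gave 5, 1 and 3 counts in n.t. libraries and 0, 4 and 2 after maltonis, and GLDC 2, 7 and 5 and then 0, 5 and 2. ERN2 gave 1, 2 and 3 and then 1, 0 and 2, and PRODH 0, 1 and 0 and then 1, 0 and 2. No fold was computed for these genes, which were all below the filter on low counts.

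Genes with a pattern most like that of a stress gene were ranked by Pearson r of log2 CPM over the 6 libraries, which fall into 2 groups, so that r is a description of likeness with no p. For ATF4 they were TMSB10, C9orf40, MGC2752, SCCPDH and DANCR, with r from 0.998 to 0.999, and among the 10 genes TRIB3 was nearest (0.994). For HSPA5 they were YWHAB, KIF3B, PKNOX1, CWC22 and VPS53, with r from 0.995 to 0.998, and among the 10 genes PSAT1 was nearest (0.980).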
